A study of Homo sapiens with 24 samples.

Results

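The family of miR-15, miR-16, miR-195 and miR-497 was measured in SBC-3 cells, an established human small cell lung cancer line, as 10 mature miRNAs of the 2652 in the count tables. They were taken by their identifiers, not by their values: the 5 guide strands miR-15a-5p, miR-16-5p, miR-15b-5p, miR-195-5p and miR-497-5p, and 5 strands from the opposite hairpin arm, miR-16-1-3p, miR-15b-3p, miR-16-2-3p, miR-195-3p and miR-497-3p. The hairpins lie in 3 host transcripts, DLEU2, SMC4 and MIR497HG, and the question was how each host's products stood after loss of SFPQ, NONO or NEAT1. All 10 passed the filter on low counts, and all 10 were detected in every group.

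The study had 24 small RNA libraries in 8 groups of 3. SFPQ was knocked down with the small interfering RNAs siSFPQ-2 and siSFPQ-3, and NONO with siNONO-3 and siNONO-4, each set against the control siRNA siCtrl. The long noncoding RNA NEAT1 was knocked down with the antisense oligonucleotides ASO-NEAT1-1047 and ASO-NEAT1-1473, set against ASO-Ctrl. Every group, controls included, was SBC-3 transfected with 10 nM of its reagent by RNAiMAX and collected after 72 h. The control libraries carry a wild-type genotype label and the others the label of their knockdown. Nothing in the labels says that replicates came from separate cultures, so p-values measure the spread between these samples, which may be technical. The levels of SFPQ, NONO and NEAT1 RNA were not analysed here.

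A miRNA hairpin is cut from a longer primary transcript by Drosha and then opened by Dicer, and usually the strand kept in Argonaute, the guide, is the more abundant arm. The guide pairs with messenger RNAs mainly through its seed, so miRNAs that share a seed share many targets. Members of the miR-15/16 family are known to restrain the cell cycle and survival, with BCL2 and several cyclins among their best studied targets, and the DLEU2 hairpins are often deleted in chronic lymphocytic leukaemia. SFPQ and NONO are paralogous proteins that bind RNA and DNA, and both are components of paraspeckles, nuclear bodies built on NEAT1.

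The 5 guides are shown first because their shared seed defines the family. The mature sequences are those of RefSeq on GRCh38.p14, written 5′ to 3′ with the seed, bases 2 to 8, in capitals, and all 10 miRNAs matched by position and name.
miR-15a-5p: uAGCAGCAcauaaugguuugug
miR-16-5p: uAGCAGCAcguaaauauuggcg
miR-15b-5p: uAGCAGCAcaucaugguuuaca
miR-195-5p: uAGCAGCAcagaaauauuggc
miR-497-5p: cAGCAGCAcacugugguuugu
All 5 carry the seed AGCAGCA and differ after it. miR-16-5p and miR-195-5p differ at 2 of 21 compared bases, G10A and U11G, counted from the 5′ end with the miR-16-5p base first. miR-15a-5p and miR-15b-5p differ at 4 of 22 bases. miR-497-5p differs from miR-195-5p, its neighbour on the chromosome, at 9 of 21 bases.

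The opposite strands are shown because they tell the hosts apart where the guide cannot, again with bases 2 to 8 in capitals.
miR-16-1-3p: cCAGUAUUaacugugcugcuga
miR-15b-3p: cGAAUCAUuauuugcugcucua
miR-16-2-3p: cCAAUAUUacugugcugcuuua
miR-195-3p: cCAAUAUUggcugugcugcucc
miR-497-3p: cAAACCACacugugguguuaga
miR-16-2-3p and miR-195-3p share the letters CAAUAUU in this window, and the other strands have a window of their own. None of the 5 carries the guides' seed.

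Positions below are on hg38, the build of the tables. In DLEU2, a noncoding transcript on the minus strand of chromosome 13, miR-15a-5p (MIMAT0000068 in the tables) lies at chr13:50049167-50049188 and miR-16-1-3p (MIMAT0004489) at chr13:50048985-50049006, both intronic. In SMC4, which encodes a condensin subunit, on the plus strand of chromosome 3, miR-15b-5p (MIMAT0000417) lies at chr3:160404607-160404628, miR-15b-3p (MIMAT0004586) at chr3:160404645-160404666 and miR-16-2-3p (MIMAT0004518) at chr3:160404797-160404818, all intronic. In MIR497HG, a noncoding transcript on the minus strand of chromosome 17, miR-195-5p (MIMAT0000461) lies at chr17:7017667-7017687, miR-195-3p (MIMAT0004615) at chr17:7017628-7017649, miR-497-5p (MIMAT0002820) at chr17:7017979-7017999 and miR-497-3p (MIMAT0004768) at chr17:7017938-7017959, all in exons of that transcript. These MIR497HG products also lie in introns of AC040977.2, another gene annotated on the same strand.

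miR-16-5p (MIMAT0000069) has a locus in both DLEU2, at chr13:50049027-50049048, and SMC4, at chr3:160404754-160404775. The hairpins are printed with the mature miR-16-5p in capitals, since the guide is identical in both and the rest is not.
MIR16-1: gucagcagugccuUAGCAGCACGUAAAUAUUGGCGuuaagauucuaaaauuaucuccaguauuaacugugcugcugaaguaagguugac
MIR16-2: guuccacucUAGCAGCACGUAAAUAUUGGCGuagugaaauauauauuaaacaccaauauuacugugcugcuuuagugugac
The counts at the 2 loci differed by at most 0.0485% in any library, so they were taken as the same measurement, and the SMC4 locus, with the larger total, stands for the miRNA. The counts of miR-16-5p therefore do not tell its hosts apart, and only miR-16-1-3p and miR-16-2-3p separate the hairpins.

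The libraries held 2038382 to 4279644 miRNA counts. Levels are given as CPM, the usual measure of a count relative to its library's total, with totals scaled by TMM, a method that assumes most miRNAs do not change. TMM factors were 1.09 to 1.36 in the 6 siSFPQ libraries and 0.846 to 1.03 in the other 18. The spike-ins came to 2.27% to 4.68% of the miRNA count in siSFPQ libraries and 2.25% to 3.18% in the others. The neuroendocrine and neural markers, 5 of 6 found by name, summed to 58324 to 79301 CPM over the siSFPQ libraries and 99246 to 113143 CPM in siCtrl. miR-7-5p and miR-9-5p made up most of that sum, while miR-375-3p stayed under 10 CPM in every library. After SFPQ knockdown 3 of the 5 were lower and 1 higher. The mesenchymal and muscle markers had 4 of 5 tested lower, with sums of 23552 to 35230 CPM in siSFPQ libraries and 32652 to 49688 CPM in siCtrl. Both endothelial markers were lower too, with sums of 850 to 1000.3 CPM in siSFPQ libraries and 1120 to 1392 CPM in siCtrl. Of the blood markers 4 of 7 were found by name, with miR-223-3p at 0 in siSFPQ-2 and siCtrl, and neither of the 2 tested was called.

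Replicate 1 of siCtrl stood apart from replicates 2 and 3, and several results below rest on it. It held 44213 CPM of miR-16-5p, against 26424 and 26812 CPM in the others, and 5539 CPM of miR-195-5p, against 3429 and 3380 CPM. It held 803 CPM of miR-497-5p, against 1572 and 1590 CPM, 518 CPM of miR-15a-5p, against 1147 and 1066 CPM, and 872 CPM of miR-15b-5p, against 1449 and 1373 CPM. So its most abundant members were high and the less abundant guides low.

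miR-16-5p was by far the leading member. It made up 79.8% of the counts of the 5 guides on average (range 75.9% to 85.1% over the 24 libraries) and was the 9th most abundant of all 2652 mature miRNAs in siCtrl. miR-195-5p followed with 10.5% (9.39% to 11.8%), then miR-497-5p with 3.67% (1.51% to 6.60%), miR-15b-5p with 3.44% (1.68% to 4.67%) and miR-15a-5p with 2.62% (0.997% to 3.52%). The ranges of the last 3 overlapped over the 24 libraries, so these ranges do not separate their order. Within a library, miR-15a-5p over miR-15b-5p was 0.594 to 0.988 outside siSFPQ-2 and 0.712 to 1.03 in siSFPQ-2. miR-497-5p over miR-15b-5p was 0.550 to 0.703 in siSFPQ libraries and 1.12 to 1.98 in siNONO libraries, so their order differed between these groups. Together the 5 guides were 2.9% to 4.4% of all miRNA counts. The members have nearly the same length, so no length correction was made. Whether their sequences affect how well each is counted was not tested, so shares and ratios between members are those of counts.

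The opposite arms were rarer. miR-15b-3p was the most abundant of them, at rank 105 in siCtrl, and ran at 36.1% of the count of its guide there (geometric mean of 3 libraries). miR-195-3p, at rank 209, had 2.26% of the count of miR-195-5p, and miR-497-3p, at rank 236, had 4.18% of that of miR-497-5p. miR-16-2-3p and miR-16-1-3p stood at ranks 226 and 358. The SMC4 strand miR-16-2-3p exceeded the DLEU2 strand miR-16-1-3p in every library. The count of miR-16-1-3p was 20.04% to 36.6% of that of miR-16-2-3p in the geometric means of the other groups and 15.1% in siCtrl.

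**Figure D1:**
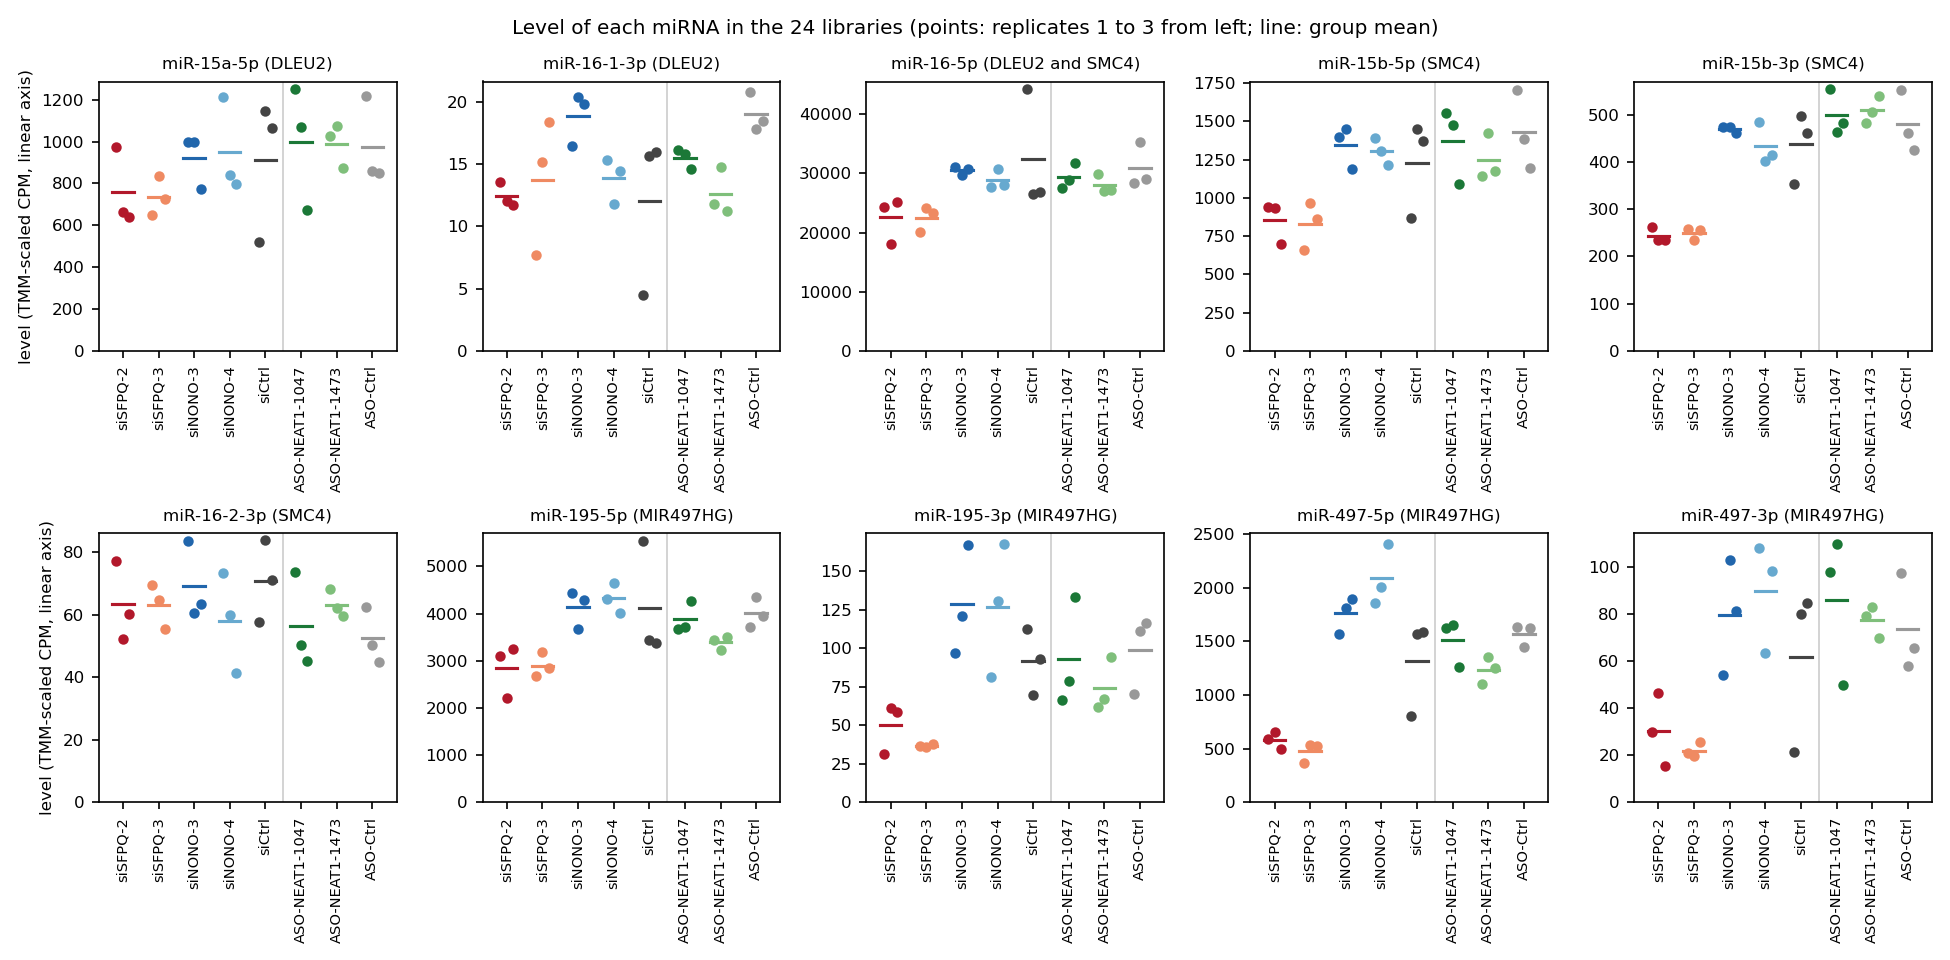
Level of each of the 10 miRNAs in TMM-scaled CPM (linear axes from 0) in the 24 libraries, with the 3 replicates of a group as points and the group mean as a line; the grey rule parts the siRNA groups from the antisense groups. In the panel of miR-497-5p the 6 siSFPQ libraries lie between 370 and 654 CPM, below all 3 siCtrl libraries, and in several panels siCtrl replicate 1 lies away from the other siCtrl points.

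After SFPQ knockdown, over both siRNAs, 7 of the 10 members were lower and none higher, at an adjusted p under 0.05 in edgeR's quasi-likelihood test. Of all 626 miRNAs tested, 22.7% were lower and 25.6% higher at that threshold. The members' median log2 fold change was -0.54, against 0.02 over all tested miRNAs. By host, all 4 MIR497HG products and 2 of 3 SMC4 products were called lower, neither of the 2 DLEU2 members was called, and the shared miR-16-5p was called lower. Among the 4, miR-195-5p kept a nearly fixed share of miR-16-5p, as given below. Whether its call is separate from that of miR-16-5p was not tested. The hosts as sets were not tested against each other. Without siCtrl replicate 1, miR-15a-5p of DLEU2 was at -0.55 and miR-195-5p of MIR497HG at -0.22, neither called. The DLEU2 strand miR-15a-3p, not a member, was at -0.58 with all libraries and was not called. Unless another test is named, each adjusted p comes from that edgeR test after adjustment by Benjamini and Hochberg's method across those 626 miRNAs, and each fold change is on the log2 scale with its standard error (SE). In the same libraries 3 of 5 neuroendocrine markers were lower and 1 higher, 4 of 5 mesenchymal and 2 of 2 endothelial markers were lower, and neither of the 2 tested blood markers was called. The part of these markers in the members' values was not tested. The 3 members with the steadiest calls were miR-497-5p, miR-15b-3p and miR-195-3p, which were past the threshold in all 18 alternatives to this comparison.

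miR-497-5p, known in other cell types to restrain cyclins, had 589, 654 and 494 CPM in siSFPQ-2 libraries and 370, 532 and 528 CPM in siSFPQ-3 libraries, against 803, 1572 and 1590 CPM in siCtrl libraries. All 6 knockdown libraries lay below every control. The log2 fold change was -1.33 ± 0.18 (SE; adjusted p = 2.7e-06). Its opposite arm miR-497-3p had 29.9, 46.4 and 15.4 CPM in siSFPQ-2 libraries and 20.8, 19.7 and 25.6 CPM in siSFPQ-3 libraries, against 21.4, 80.01 and 84.7 CPM in siCtrl libraries. Here siCtrl replicate 1 lay within the knockdown range, and 3 of 6 knockdown libraries were below every control. Its fold change was -1.25 ± 0.35 (adjusted p = 0.0053), and it was not past the threshold without siCtrl replicate 3 (-0.97, adjusted p = 0.052). So both arms of the MIR497 hairpin were lower over both siRNAs together, the passenger with the wider error. With siSFPQ-2 alone miR-497-3p was not called (adjusted p = 0.060). It was past the threshold in 6 of 15 alternatives with siSFPQ-2 and 14 of 15 with siSFPQ-3.

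miR-195-5p, the guide of the neighbouring hairpin, had 3105, 2212 and 3249 CPM in siSFPQ-2 libraries and 2673, 3182 and 2836 CPM in siSFPQ-3 libraries, against 5539, 3429 and 3380 CPM in siCtrl libraries. The groups did not overlap, but siCtrl replicates 2 and 3 were close to the highest knockdown values. The fold change was -0.52 ± 0.15 (adjusted p = 0.0083), and without siCtrl replicate 1 it was -0.22 (adjusted p = 0.19) and no longer called. miR-195-3p had 31.7, 61.2 and 58.5 CPM in siSFPQ-2 libraries and 36.4, 35.7 and 37.7 CPM in siSFPQ-3 libraries, against 113, 70.1 and 93.0 CPM in siCtrl libraries. It changed by -1.10 ± 0.27 (adjusted p = 0.0018), with all 6 knockdown libraries below every control, and it held without siCtrl replicate 1 (-0.90, adjusted p = 0.013).

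Among the SMC4 products, miR-15b-3p had 262, 235 and 235 CPM in siSFPQ-2 libraries and 257, 235 and 256 CPM in siSFPQ-3 libraries, against 354, 498 and 462 CPM in siCtrl libraries. This was the tightest of the members' knockdown ranges for its level, and no knockdown library reached the lowest control. Its fold change was -0.83 ± 0.14 (adjusted p = 4.0e-05). Its guide miR-15b-5p, which like the other guides carries the seed that pairs with BCL2, had 941, 932 and 702 CPM in siSFPQ-2 libraries and 659, 968 and 864 CPM in siSFPQ-3 libraries, against 872, 1449 and 1373 CPM in siCtrl libraries. The groups overlapped through siCtrl replicate 1, and 3 of 6 knockdown libraries were below every control. The fold change was -0.54 ± 0.18 (adjusted p = 0.015). It missed the threshold without siCtrl replicate 2 (-0.41, adjusted p = 0.11), without siCtrl replicate 3 (-0.46, adjusted p = 0.076) and without siSFPQ-3 replicate 1 (-0.49, adjusted p = 0.052).

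miR-16-2-3p, the SMC4 passenger of miR-16, was not called. It had 52.4 to 77.2 CPM in the 6 siSFPQ libraries (median 62.5 CPM), against 57.7, 84 and 71.0 CPM in siCtrl libraries, a fold change of -0.16 ± 0.21 (adjusted p = 0.54). So within SMC4 the MIR15B products differed from siCtrl past the threshold and the MIR16-2 passenger did not; the difference between them was not tested.

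The DLEU2 products did not pass the test. miR-15a-5p had 973, 664 and 640 CPM in siSFPQ-2 libraries and 651, 837 and 724 CPM in siSFPQ-3 libraries, against 518, 1147 and 1066 CPM in siCtrl libraries. The control spread took in every knockdown library. It changed by -0.28 ± 0.23 (adjusted p = 0.33), and without siCtrl replicate 1 it was -0.55 (adjusted p = 0.058). miR-16-1-3p had 7.69 to 18.3 CPM in siSFPQ libraries (median 12.8 CPM), against 4.5, 15.6 and 15.96 CPM in siCtrl libraries. It is the rarest member, with 47.7 counts per library on average, and its fold change of 0.13 ± 0.29 (adjusted p = 0.73) leaves changes of either sign within the error.

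miR-16-5p, the product of both hosts, had 24357, 18094 and 25200 CPM in siSFPQ-2 libraries and 20135, 24176 and 23250 CPM in siSFPQ-3 libraries, against 44213, 26424 and 26812 CPM in siCtrl libraries. Every knockdown library was below every control, with a narrow gap to replicates 2 and 3. The fold change was -0.53 ± 0.15 (adjusted p = 0.0053). Without siCtrl replicate 1 it was -0.22 (adjusted p = 0.17), so the call on the most abundant family member rests on that library. Leaving that library out left 5 of the 10 members lower, and the same number remained without siCtrl replicate 3.

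**Figure D2:**
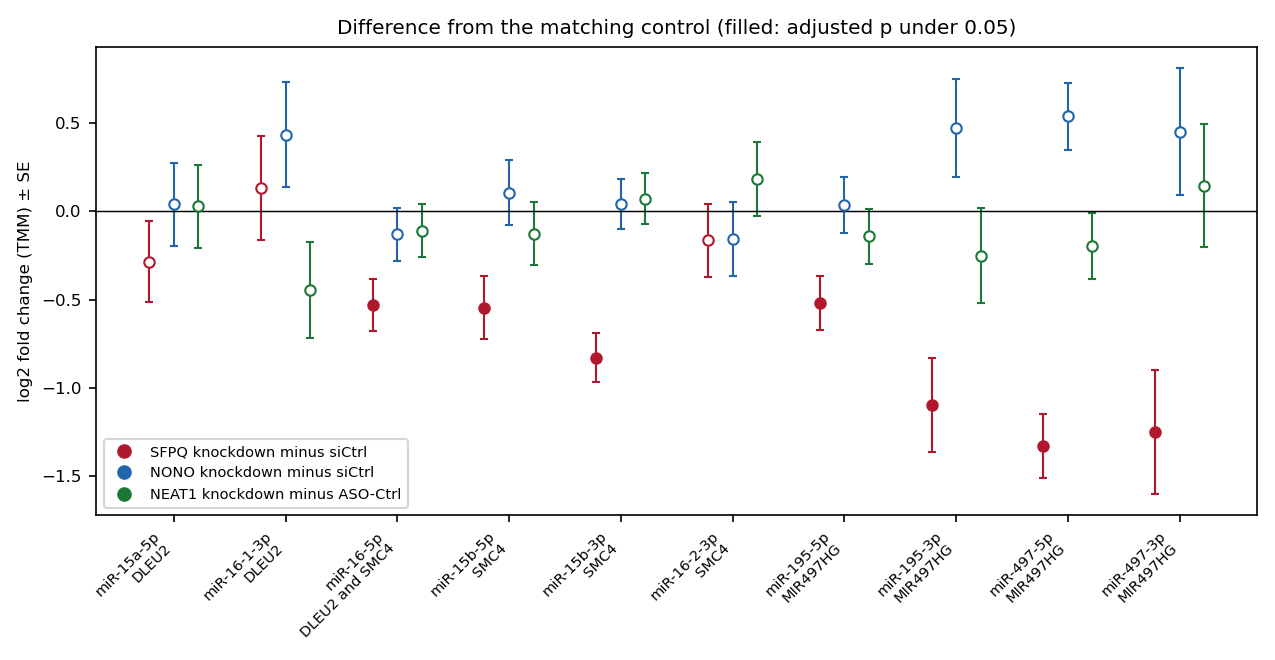
Log2 fold change of each miRNA (TMM scaling) with its standard error as the bar, for SFPQ and NONO knockdown against siCtrl and NEAT1 knockdown against ASO-Ctrl; filled points have an adjusted p under 0.05. The SFPQ and NONO comparisons share the 3 siCtrl libraries. The filled points are the 7 members lower after SFPQ knockdown, down to -1.33 for miR-497-5p, and no NONO or NEAT1 point is filled.

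The siRNAs gave close values. With siSFPQ-2, 5 members were lower, against 15.5% of all miRNAs tested, and with siSFPQ-3, 7 were lower, against 21.7%. Without siSFPQ-3 replicate 1 the siSFPQ-3 count was 4. miR-497-5p changed by -1.47 ± 0.22 with siSFPQ-3 and -1.19 ± 0.22 with siSFPQ-2. miR-195-3p changed by -1.33 ± 0.32 with siSFPQ-3 and -0.87 ± 0.32 with siSFPQ-2. The direct difference of siSFPQ-3 minus siSFPQ-2 was called for none of the 10 members, against 0.639% of all miRNAs, ranging between -0.48 and 0.14 (lowest adjusted p = 0.86, and none at an unadjusted p under 0.05 or with DESeq2). For miR-497-5p that difference was -0.28 ± 0.22 (SE), so a moderate difference between the reagents is not shown to be absent.

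How far the family fell depended on the scaling. TMM placed the median of all tested miRNAs at 0.02. With library totals alone that median was 0.47, and with spike-in totals 0.21, and the split of all calls was 252 higher and 67 lower, and 182 higher and 90 lower, against 160 higher and 142 lower with TMM. The members' median was -0.09 with library totals and -0.34 with spike-in totals. Relative to the median of all miRNAs the members' median was -0.56 with library totals and -0.55 with spike-in totals and with TMM. A change of scaling moves all fold changes by nearly the same amount, so this likeness was nearly fixed in advance and gives no support. Among the 395 miRNAs with a mean of at least 10 CPM, the median of all was -0.10 and 28.6% were lower. There the members' median relative to that of all was -0.42, with 7 members lower. Library totals left 3 members called, miR-497-5p (-0.90, adjusted p = 0.00069), miR-195-3p (-0.62, adjusted p = 0.047) and miR-15b-3p (-0.39, adjusted p = 0.048). Spike-in totals left 4, these 3 and miR-497-3p (-1.14, adjusted p = 0.013). miR-16-5p was at -0.07 with library totals and -0.30 with spike-in totals, and miR-195-5p at -0.06 with library totals and -0.29 with spike-in totals, none of them past the threshold. A fit to the compared groups alone, with fewer libraries to estimate the spread, left 4 members lower, against 15.8% of the 589 miRNAs tested there. The sign changed for 2 uncalled members with library totals, to 0.14 for miR-15a-5p and 0.27 for miR-16-2-3p.

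**Figure D3:**
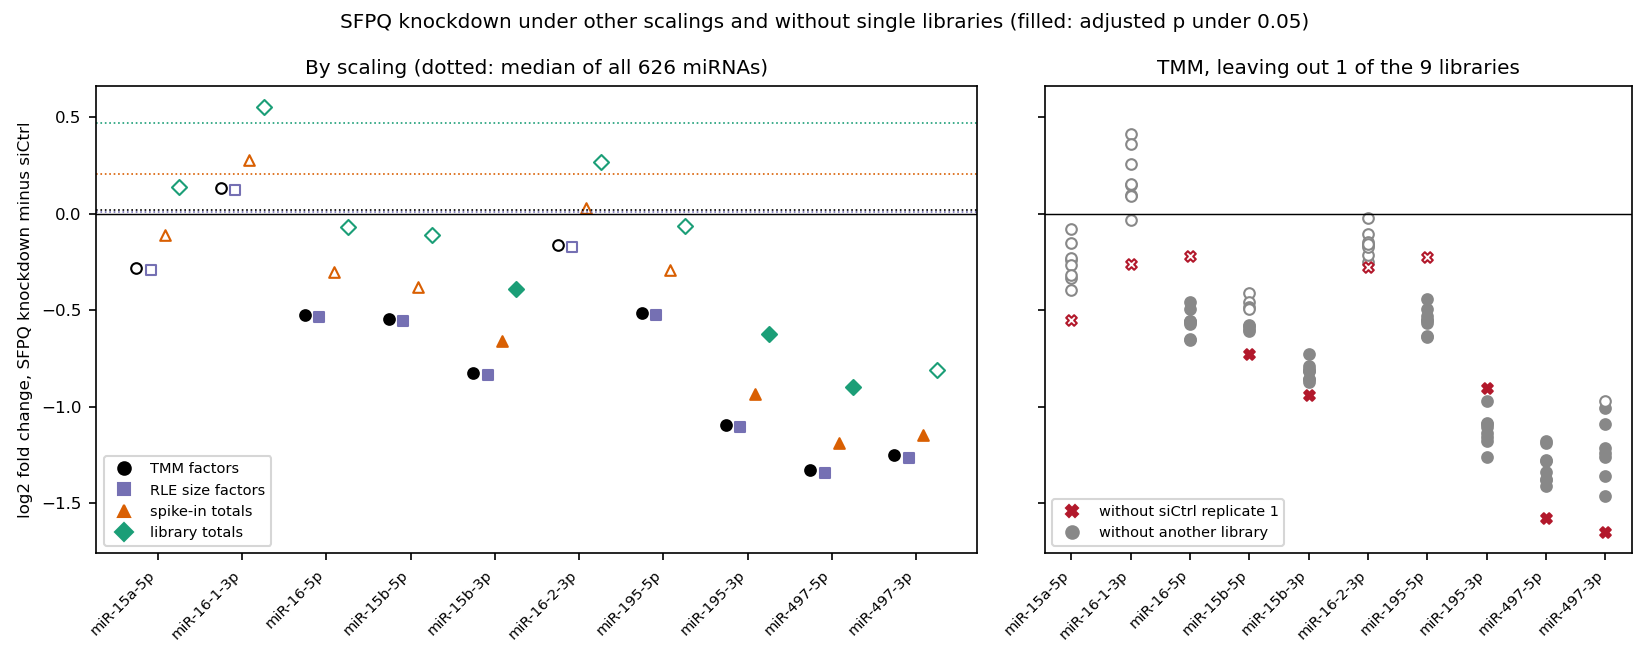
Log2 fold change of each miRNA in SFPQ knockdown minus siCtrl, left under 4 scalings with the median of all tested miRNAs as a dotted line, and right with TMM and 1 library left out at a time; filled marks have an adjusted p under 0.05. miR-497-5p, miR-195-3p and miR-15b-3p are filled throughout, while miR-16-5p and miR-195-5p move to -0.22 and open marks without siCtrl replicate 1.

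Ratios between members in the same library do not depend on scaling, and 8 of them were compared for each of the 3 targets. They were tested with a two-sided exact permutation test over the 6 knockdown and 3 control libraries (84 arrangements, smallest possible p = 0.0238), with adjustment over the 24 tests. None passed after adjustment, and 12 tests at the smallest p would have been needed for any to do so. Among the ratios after SFPQ knockdown, miR-497-5p over miR-15b-5p had the lowest p. Its log2 ratio was -0.67, -0.51 and -0.51 in siSFPQ-2 libraries and -0.83, -0.86 and -0.71 in siSFPQ-3 libraries, against -0.12, 0.12 and 0.21 in siCtrl libraries. All 6 knockdown libraries were below every control, including siCtrl replicate 1. The difference was -0.75 (exact permutation p = 0.0238, adjusted p = 0.29).

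Other ratios overlapped between SFPQ knockdown and siCtrl. Between hosts, miR-195-5p over miR-15b-5p differed by 0.04, with no knockdown library outside the control range. miR-15a-5p over miR-15b-5p differed by 0.31, with 5 of 6 knockdown libraries above every control (exact permutation adjusted p = 0.47). miR-16-1-3p over miR-16-2-3p differed by 0.43 (exact permutation adjusted p = 0.57). miR-497-5p over miR-195-5p differed by -0.79 (exact permutation adjusted p = 0.47), with siCtrl replicate 1, at -2.79, among the lowest libraries of all. The arms of MIR15B differed by -0.29 in miR-15b-3p over miR-15b-5p and those of MIR195 by -0.61 in miR-195-3p over miR-195-5p, each with 5 of 6 knockdown libraries below every control (exact permutation adjusted p = 0.47 for each), while 1 siSFPQ-2 library lay above every control for miR-195-3p over miR-195-5p. The arms of MIR497 differed by 0.19 (exact permutation adjusted p = 0.81). With 84 arrangements and 24 tests no single ratio could pass after adjustment, whatever its size. The test therefore cannot decide whether the arm balance of a hairpin differed.

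miR-195-5p kept a nearly fixed share of miR-16-5p, a ratio looked at after the values were seen and given without a test. It was 12.6% in siSFPQ-2, 12.9% in siSFPQ-3 and 12.7% in siCtrl libraries (geometric means), and ran from 0.115 to 0.156 as a ratio over all 24 libraries. Over the same libraries miR-497-5p over miR-195-5p ran from 0.138 to 0.600, although these hairpins share a host. siCtrl replicate 1, which was high in miR-16-5p, was high in miR-195-5p in the same measure, while miR-497-5p there was low. As printed above, miR-16-5p and miR-195-5p differ at only 2 bases. Whether reads of miR-16-5p were counted as miR-195-5p was not tested, so the level and fold change of miR-195-5p are uncertain. Its share of the guides, its arm ratio and its place among the called MIR497HG products carry the same doubt.

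**Figure D4:**
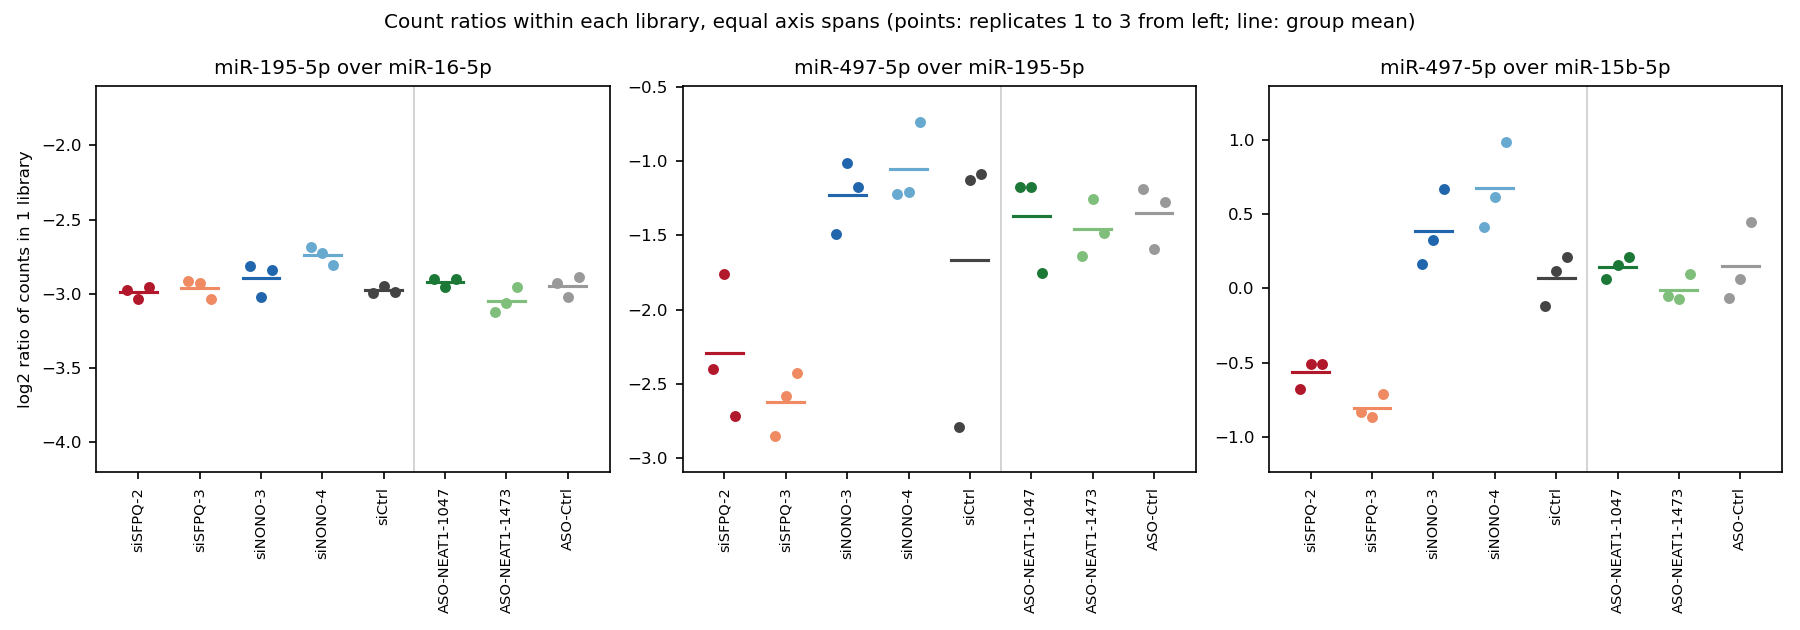
Log2 ratio of counts within each library for 3 pairs of miRNAs, with points for the 3 replicates, lines for group means and equal axis spans. The siSFPQ libraries lie at -0.86 to -0.51 for miR-497-5p over miR-15b-5p, below the siCtrl libraries at -0.12 to 0.21. miR-195-5p over miR-16-5p is nearly level between the siSFPQ and siCtrl groups and highest in siNONO-4.

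After NONO knockdown no member was called, against 1.6% of all miRNAs tested. Of the 10, 1 member, miR-497-5p, had an unadjusted p under 0.05, and DESeq2 called none. miR-497-5p had 1574, 1813 and 1900 CPM in siNONO-3 libraries and 1855, 2007 and 2410 CPM in siNONO-4 libraries, against 803, 1572 and 1590 CPM in siCtrl libraries. Its fold change was 0.54 ± 0.19 (adjusted p = 0.18), at 0.42 ± 0.22 with siNONO-3 and 0.66 ± 0.22 with siNONO-4. Neither siRNA alone had a called member, against 2.56% of all miRNAs with siNONO-3 and 0.958% with siNONO-4. The sign was opposite to that after SFPQ knockdown, with the same 3 controls. miR-195-3p was at 0.47 ± 0.28 and miR-497-3p at 0.45 ± 0.36 (adjusted p = 0.55 and 0.68). The control siCtrl replicate 1 was the lowest for miR-497-5p and miR-497-3p and the highest for miR-195-3p. With 1 library left out at a time, miR-497-5p ran from 0.30 to 0.69, miR-497-3p from 0.05 to 0.73 and miR-195-3p from 0.31 to 0.67. The log2 ratio of miR-497-5p over miR-15b-5p was 0.46 higher in siNONO than in siCtrl libraries, with 5 of 6 above every control (exact permutation p = 0.0476, adjusted p = 0.38). The endothelial markers, not called over both siRNAs, summed to 1467 to 2428 CPM in siNONO libraries and 1120 to 1392 CPM in siCtrl, and their part in the value of miR-497-5p was not tested.

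Products of the other hosts were not called after NONO knockdown either. The 3 SMC4 products had fold changes of -0.16 to 0.11 and miR-16-5p was at -0.13 ± 0.15. miR-15a-5p was at 0.04 ± 0.23 and miR-16-1-3p at 0.44 ± 0.30, with all 3 siNONO-3 libraries and none of the 3 siNONO-4 libraries above every siCtrl library for miR-16-1-3p. With 1 library left out at a time, miR-16-1-3p ran from 0.04 to 0.71. miR-16-5p had 27696 to 31082 CPM in the 6 siNONO libraries (median 30238 CPM), against 44213, 26424 and 26812 CPM in siCtrl libraries, and these ranges overlapped. The direct difference of siNONO-4 minus siNONO-3 was called for no member (-0.44 to 0.25, lowest adjusted p = 0.89), at a background of 0% of all miRNAs tested. No member had an unadjusted p under 0.05 there or was called with DESeq2.

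After NEAT1 knockdown no member was called, at a background of 0% of all miRNAs tested. None had an unadjusted p under 0.05, and DESeq2 called none. miR-497-5p had 1625, 1650 and 1265 CPM in ASO-NEAT1-1047 libraries and 1103, 1355 and 1256 CPM in ASO-NEAT1-1473 libraries, against 1636, 1444 and 1629 CPM in ASO-Ctrl libraries. The groups overlapped, at a fold change of -0.20 ± 0.19 (adjusted p = 0.91), with -0.05 ± 0.22 for ASO-NEAT1-1047 and -0.34 ± 0.22 for ASO-NEAT1-1473. miR-16-5p had 27013 to 31771 CPM in the 6 knockdown libraries (median 28174 CPM), against 28339, 35324 and 29127 CPM in ASO-Ctrl libraries, a fold change of -0.11 ± 0.15 (adjusted p = 0.91). The 10 fold changes lay between -0.45 and 0.18.

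The lowest of these was miR-16-1-3p, the DLEU2 strand. It had 16.1, 15.8 and 14.6 CPM in ASO-NEAT1-1047 libraries and 11.8, 14.7 and 11.2 CPM in ASO-NEAT1-1473 libraries, against 20.8, 17.8 and 18.5 CPM in ASO-Ctrl libraries. All 6 knockdown libraries lay below every control, but the fold change of -0.45 ± 0.27 was not past the test (adjusted p = 0.91). Set against miR-16-2-3p in the same library, its log2 ratio differed by -0.62 after NEAT1 knockdown, with all 6 libraries below every control (-2.07 ± 0.37 in 6 knockdown libraries and -1.45 ± 0.16 in 3 ASO-Ctrl libraries, SD; exact permutation p = 0.0238, adjusted p = 0.29). The counts behind it are small, and with 84 arrangements and 24 tests no single ratio could pass after adjustment.

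SFPQ knockdown was also set directly against NONO knockdown, 6 libraries against 6, which does not use siCtrl. By this contrast 7 members were lower and none higher, at a background of 26.8% lower and 29.7% higher among all miRNAs tested. miR-497-5p had 370 to 654 CPM in siSFPQ libraries (median 530 CPM) and 1574 to 2410 CPM in siNONO libraries (median 1877 CPM), a difference of -1.87 ± 0.16 (adjusted p = 7.0e-10). miR-497-3p differed by -1.70 ± 0.30 (adjusted p = 3.8e-05), miR-195-3p by -1.57 ± 0.23 (adjusted p = 3.7e-06) and miR-15b-3p by -0.87 ± 0.12 (adjusted p = 1.3e-06). These 4 were called in each of the 21 alternatives.

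The other called members were guides. miR-15b-5p differed by -0.65 ± 0.15 (adjusted p = 0.00069), miR-195-5p by -0.55 ± 0.13 (adjusted p = 0.00079) and miR-16-5p by -0.40 ± 0.12 (adjusted p = 0.0080). miR-16-5p had 18094 to 25200 CPM in siSFPQ libraries and 27696 to 31082 CPM in siNONO libraries, with no overlap. With library totals or spike-in totals these 3 were not past the threshold, at -0.31, -0.22 and -0.06 with library totals in the order named. miR-15a-5p (-0.32 ± 0.19), miR-16-1-3p (-0.30 ± 0.23) and miR-16-2-3p (-0.01 ± 0.17) were not called.

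The change after SFPQ knockdown was compared with the change after NEAT1 knockdown, each against its own control. It was lower for 3 members, against 11.3% of all miRNAs tested, namely miR-497-5p (-1.13 ± 0.27, adjusted p = 0.0029), miR-15b-3p (-0.90 ± 0.20, adjusted p = 0.0019) and miR-497-3p (-1.40 ± 0.50, adjusted p = 0.046). With library totals none of the 3 was past the threshold, with spike-in totals 1 was, and miR-497-3p was called in 9 of 27 alternatives. The guides miR-16-5p (-0.42 ± 0.21) and miR-195-5p (-0.38 ± 0.22) were not called. ASO-Ctrl minus siCtrl was called for no member (-0.43 to 0.68, lowest adjusted p = 0.68, none at an unadjusted p under 0.05 or with DESeq2), at a background of 0.479% of all miRNAs.

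Other miRNAs with the family's seed or its core were few. miR-424-5p, on the X chromosome, carries the seed AGCAGCA and had 142 to 376 CPM in siSFPQ libraries, against 88.8, 259 and 179 CPM in siCtrl libraries. Its fold change was 0.59 ± 0.42 (adjusted p = 0.26), above 0 where the called members were below it, and it was not past the threshold. miR-6838-5p, with the same seed, had 1 count in all and was not tested. miR-503-5p, the neighbour of miR-424 that shares the first 6 seed bases, was at 0.41 ± 0.24 (adjusted p = 0.17), and it passed with library totals (0.86, adjusted p = 0.0083). miR-646, with the same 6 bases, was listed at 0 in every library. Set directly against NONO knockdown, SFPQ knockdown had higher miR-424-5p (0.88 ± 0.33, adjusted p = 0.029) and miR-503-5p (0.61 ± 0.19, adjusted p = 0.0088), where 7 family members were lower.

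miR-107 carries the core of the seed shifted by 1 base. It had 3901, 4720 and 4625 CPM in siSFPQ-2 libraries and 3755, 4611 and 4607 CPM in siSFPQ-3 libraries, against 9763, 5206 and 5177 CPM in siCtrl libraries. Its fold change was -0.62 ± 0.21 (adjusted p = 0.019), with siCtrl replicate 1 high as for miR-16-5p, and without that library it was -0.23 (adjusted p = 0.32). miR-103a-3p, which differs from miR-107 near its end, was listed at 0 in all 24 libraries. Whether its reads were counted as miR-107 was not tested, so the level and fold change of miR-107 are uncertain. miR-15a-3p, the opposite arm of miR-15a-5p in DLEU2, had 3.66 to 8.79 CPM in siSFPQ libraries, against 5.62, 15.6 and 9.35 CPM in siCtrl libraries, a fold change of -0.58 ± 0.39 (adjusted p = 0.23). None of these miRNAs was called after NONO or NEAT1 knockdown. In SFPQ against NONO knockdown, miR-107 was lower by this test (-0.90 ± 0.18, adjusted p = 0.00015).

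The miRNAs outside the family whose 8 group means of log2 CPM were most like a member's were named as a description. miR-497-5p was closest to miR-653-5p (Pearson r = 0.990) and miR-1307-3p (r = 0.986), and miR-15b-3p to miR-12135 (r = 0.984) and miR-335-3p (r = 0.983). miR-15b-5p was closest to miR-1226-3p (r = 0.989) and miR-17-3p (r = 0.986), miR-195-5p to miR-324-3p (r = 0.978) and miR-671-5p (r = 0.969), and miR-16-5p to miR-3120-5p (r = 0.968) and miR-421 (r = 0.962). miR-15a-5p was closest to miR-133b and miR-545-5p (r = 0.968 and 0.965), and miR-497-3p to miR-1226-3p and miR-205-5p (r = 0.981 and 0.972). miR-195-3p was closest to miR-653-3p (r = 0.980) among named miRNAs. Among named miRNAs the passengers of miR-16 had lower coefficients, miR-361-3p for miR-16-1-3p (r = 0.872) and miR-1268a for miR-16-2-3p (r = 0.833). The 8 points of each pair share libraries and scaling, and the highest of many candidates was taken each time.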

How the data were processed

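The deposited values are raw counts per mature miRNA locus, which the authors made using featureCounts 2.0.3, per the file headers. Also named, in the submitters' processing notes, are Trimmomatic 0.39, Bowtie 1.3.0, UMI-tools 1.1.1 and hg38. None of the sources used here states whether reads were collapsed by molecular identifier. Per the labels' protocols, 100 ng of RNA with spike-ins entered the QIAseq miRNA kit.

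Loci were named by position from RefSeq on GRCh38.p14 (2364 of 2652 mature miRNAs), and the locus with the largest total was kept for each. A 24-library model was fitted with edgeR 4.0.16 (quasi-likelihood, TMM, residual df 16) to the 626 miRNAs passing filterByExpr at a minimum count of 10. They held 99.97% of the counts. P-values were adjusted by Benjamini-Hochberg at 0.05, and SE is the size of the log2 fold change over the root of F. Both siRNAs or antisense oligonucleotides of a target were averaged with equal weight. The fit was tested on simulated data. Alternatives were RLE (a median-ratio scaling), library and spike-in totals, other filters, DESeq2 1.42.0, summed loci, the compared groups alone, a replicate block and leaving out each library. Genes named were all 10 members, the miRNAs of related lists, and the 2 miRNAs nearest to each member by Pearson correlation. The members and lists were chosen with earlier results of these data known.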

Additional observations from a re-analysis of the deposited data

Results flagged for a closer look

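The change after SFPQ knockdown, against siCtrl, differed from the change after NEAT1 knockdown, against ASO-Ctrl, for 3 of the 10 miRNAs, by a test of the difference itself in edgeR's quasi-likelihood model. For miR-497-5p the difference was -1.13 ± 0.27 on the log2 scale (SE; adjusted p = 0.0029), from -1.33 after SFPQ and -0.20 after NEAT1 knockdown. All 6 siSFPQ libraries were below every siCtrl library. For miR-15b-3p the difference was -0.90 ± 0.20 (adjusted p = 0.0019), from -0.83 after SFPQ and 0.07 after NEAT1 knockdown, again with all 6 siSFPQ libraries below every siCtrl library. For miR-497-3p the difference was -1.40 ± 0.50 (adjusted p = 0.046), from -1.25 after SFPQ and 0.15 after NEAT1 knockdown, with 3 of 6 siSFPQ libraries below every siCtrl library. The reagents also differ in kind between these experiments, siRNA for SFPQ and antisense oligonucleotide for NEAT1, and the target and the kind of reagent cannot be told apart. No group had more than 3 libraries, so single libraries were not screened for outlying values.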

How the results depend on the processing

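The count of family miRNAs lower after SFPQ knockdown was 7 with TMM, 3 with library totals, 4 with spike-in totals, 4 with the compared groups alone and 5 to 7 with 1 library left out. Of all miRNAs tested, 22.7% were lower with TMM, 10.7% with library totals, 14.4% with spike-in totals and 15.8% with the compared groups alone. For the single siRNAs and the direct differences such shares are given with TMM only. For siSFPQ-2 the count of family miRNAs lower was 5, against 7 with RLE, 7 with DESeq2, 2 with library totals, 1 with the compared groups alone and 4 to 5 with 1 library left out. For siSFPQ-3 it was 7, against 2 with library totals, 3 with spike-in totals, 4 with no filter, 3 with the compared groups alone and 4 to 7 with 1 library left out. In SFPQ minus NONO knockdown it was 7, against 4 with library totals and 4 with spike-in totals. In the SFPQ effect minus the NEAT1 effect it was 3, against 0 with library totals and 1 with spike-in totals. With library totals the siSFPQ-3 values changed sign for miR-16-5p (0.0058) and miR-195-5p (0.026), neither past the threshold, and the cause was not tested. The counts of family miRNAs higher after SFPQ knockdown, and of family miRNAs in either direction after NONO or NEAT1 knockdown, were 0 under every alternative run. Values that were never called changed sign in 72 of 1536 fold-change alternatives and 24 of 264 ratio alternatives.

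Replicate numbers were not taken as pairing the samples, since not every same-numbered pair of libraries deviated together at a correlation over 0.1: 3 of 9 pairs did among the siSFPQ and siCtrl groups, 4 of 9 among the siNONO and siCtrl groups and 7 of 9 among the NEAT1 and ASO-Ctrl groups, pairs of knockdown groups included. Between both knockdown groups of a target, same-numbered libraries all correlated positively, from 0.04 (SFPQ, replicate 2) to 0.54 (NEAT1, replicate 3). The main model and the ratio tests do not take up such shared deviation. With a replicate block 7 miRNAs were lower after SFPQ knockdown, 6 with siSFPQ-2 alone, and 4 in the SFPQ effect minus the NEAT1 effect. Most alternatives to the single siRNAs and to the direct differences were chosen after seeing the data. Precision is limited by 3 libraries a group and, for miR-16-1-3p, by 47.7 counts per library on average.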
